A study of Mus musculus with 60 samples.

Results

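The nuclear-encoded transcripts of the mitochondrial respiratory chain and the ATP synthase were described in the hippocampus of WT mice and of R6/1 Huntington's disease mice. Members were taken by symbol, as every entry of the expression table named Nduf (a, b, c, s or v with a number), Sdha to Sdhd, Uqcr, Cox4 to Cox8 (with a subunit letter) or Atp5. This rule found 82 of the 24508 gene symbols, and 80 of them were among the 14446 genes tested. Both groups had 9 RNA libraries, labelled as independent biological replicates, from 30-week-old mice on a mixed CBA x C57BL/6 background, and the genotypes were WT and R6/1. R6/1 mice carry, beside their own Htt genes, a transgene of human huntingtin exon 1 whose CAG repeat is expanded. It is a model of a fragment of the protein, and the tissue was whole hippocampus, in which fewer cells of a type and less RNA per cell cannot be told apart. The study as a whole addressed lamin B1, a protein of the nuclear envelope, in Huntington's disease, and its lamin B1 domains are set beside the members further on.

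The respiratory chain carries electrons from NADH and succinate to oxygen and pumps protons across the inner mitochondrial membrane, and the ATP synthase uses the resulting gradient to make ATP. Complex I takes electrons from NADH, complex II from succinate, complex III passes them to cytochrome c, complex IV hands them to oxygen, and complex V is the ATP synthase. Neurons draw most of their ATP from this pathway, and loss of complex II activity has long been studied in Huntington's disease. The subunits that mitochondrial DNA encodes were not analysed here.

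The libraries held between 12299434 and 16736544 reads on genes, as recovered from the steps of the deposited RPKM values. No pair of libraries of 1 genotype agreed within counting noise. All 5 neuron markers were lower in R6/1, with a summed level of 1707 to 2051 RPKM in WT and 1306 to 1474 RPKM in R6/1. Astrocyte markers were lower for 6 of 6, inhibitory neuron markers for 5 of 6 and oligodendrocyte markers for 4 of 6. Choroid plexus markers differed widely between libraries in both genotypes (summed level 25.6 to 1075 RPKM in WT and 38.8 to 1743 RPKM in R6/1). The part of these lists in the members' values was not tested, apart from the fits with a covariate given at the end. Every value below is an RPKM level or a log2 fold change of R6/1 over WT computed as log2(RPKM + 0.5), so that changes of low genes are understated. A gene is called higher or lower where limma's adjusted p, over all tested genes, is under 0.05.

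The members were abundant transcripts. 37 of the 80 had a mean of at least 100 RPKM and 71 at least 20 RPKM, against 8.29 RPKM for the median tested gene. The 6 members under 4 RPKM were Cox6a2, Cox6b2, Cox7a1, Cox7b2, Cox8b and Ndufa4l2, all isoforms with a more abundant counterpart in the set. Ndufs5, an accessory subunit of complex I, and Cox8c, a cytochrome oxidase isoform known from testis, were listed at 0 in all 18 libraries. Ndufs5 has 1 near-identical copy elsewhere in the genome, and its neighbours in the complex were well above 0 RPKM. Other members with such copies had reads, such as Atp5l with 8 copies at a mean of 196 RPKM. Why Ndufs5 was listed at 0 was not tested, and the 0 is not read as absence of its transcript.

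Members changed little in size and in both directions. 16 were higher in R6/1, 13 were lower and 51 were not called. The members called were 29 of 80, where 48.3% of all tested genes were called (24.8% higher and 23.5% lower). Genes of at least 18.2 RPKM, the 10th percentile of the members, were called in 60.2% of cases, and 37.5% of the members at that level were. The median log2 fold change was 0.0079 over the members and 0.0036 over all tested genes. Leaving out 1 library moved the members' median between -0.0096 (without R6/1 replicate 1) and 0.026 (without WT replicate 2), and it was also below 0 without WT replicate 6. The median absolute change was 0.098 over the members and 0.16 over all tested genes, and 78 of 80 members moved by less than 0.3. The changes ran from -0.56 for Cox6a2 to 0.27 for Sdha, and Cox6a2 alone was called with a change of at least 0.5 in size, as were 8.34% of all tested genes. By complex, 7 of 36 members of complex I were higher and 3 lower, 1 of 4 of complex II was higher and 0 lower, 3 of 8 of complex III were higher and 3 lower, 2 of 15 of complex IV were higher and 2 lower, and 3 of 17 of complex V were higher and 5 lower. The complex medians were 0.039 for complex I, 0.027 for II, 0.060 for III, -0.030 for IV and -0.030 for V. Complexes follow the symbols here. Ndufa4 and Ndufa4l2, found with complex IV, are counted in complex I, and Atp5s and Atp5sl, not structural subunits, in complex V. The split of directions and the number called depended on the scaling. Scaling by each library's total reads made 36 of the 80 members higher and 7 lower, where 52.9% of all tested genes were called. It moved the median of all genes to 0.069 and the share of higher genes among all calls from 51.4% to 66.9%. Quantile normalization made 34 members higher and 9 lower, where 50.5% of all tested genes were called. Under neither scaling were the members called less often than all genes. With the mean of the neuron markers as a covariate, which separates the genotypes on its own, 7.01% of all genes and 1 member, Sdha, were called. In the authors' deposited table, 15 members were higher and 13 lower, 28 of them called here too and 0 in the opposite direction. That table called 47.8% of the 14442 genes also tested here, and 40.4% of all its genes with an adjusted p.

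**Figure D1:**
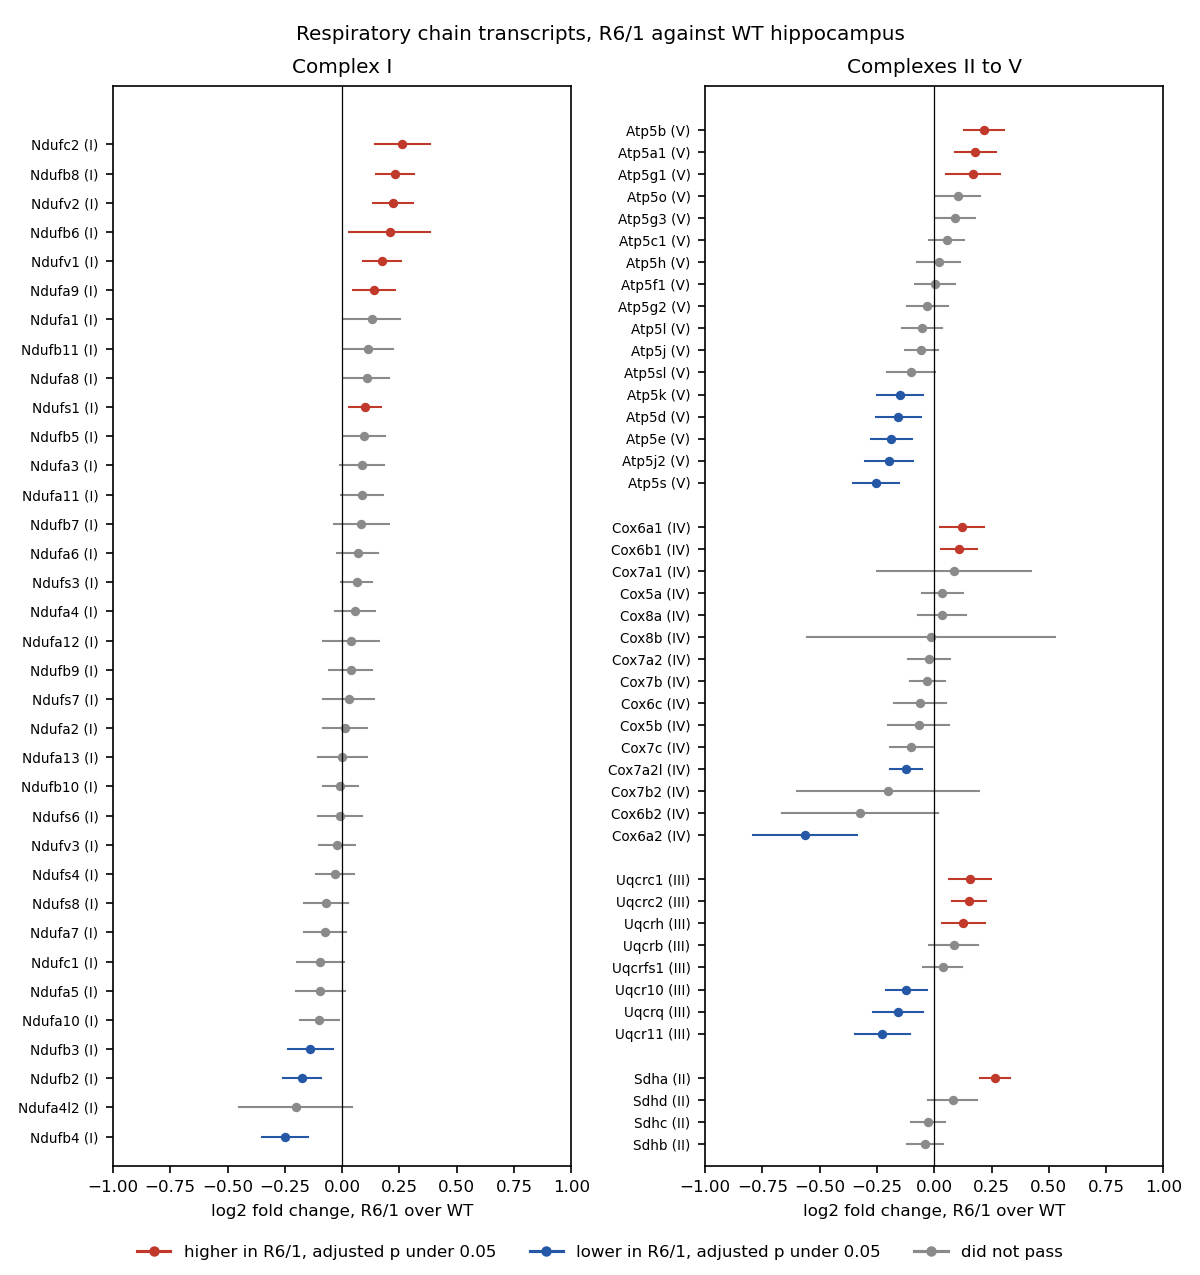
Log2 fold change of R6/1 over WT for 79 of the 80 tested members, by complex. Points are limma estimates, bars are 95% confidence intervals, and colour marks members higher (red, 16) or lower (blue, 13) at an adjusted p under 0.05. Most points lie within 0.3 of 0, and each of complexes I, III, IV and V holds members on both sides.

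Only Sdha, Ndufb8 and Ndufb4 separated the genotypes in every library, where 11.9% of all tested genes did (5.5% higher and 6.38% lower in R6/1). Sdha encodes the flavoprotein of complex II, which oxidises succinate and is also an enzyme of the TCA cycle. It lies on chromosome 13 (chr13:74459702-74487728, minus strand; gene positions are on NCBIM37). Its level ran from 138 through a median of 144 to 164 RPKM in WT and from 172 through 178 to 183 RPKM in R6/1. All R6/1 libraries lay above all WT libraries. The means were 147 ± 7.62 RPKM for WT against 177 ± 3.84 for R6/1 (SD, n = 9 each; log2 fold change 0.27, SE 0.031, limma adjusted p 8.02e-07), an increase of 20.2%.

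Ndufb8, an accessory subunit of the membrane arm of complex I (chr19:44618212-44627321, minus strand), ran from 39.96 through a median of 43.9 to 47.3 RPKM in WT and from 47.6 through 50.6 to 57.9 RPKM in R6/1. The highest WT library and the lowest R6/1 library were close but did not overlap (43.9 ± 2.26 RPKM for WT against 51.7 ± 3.15 for R6/1, SD, n = 9 each; log2 fold change 0.23, SE 0.039, limma adjusted p 6.26e-05). Ndufb4, another accessory subunit of that arm (chr16:37647256-37654539, minus strand), moved the other way. It ran from 109.6 through a median of 113 to 142 RPKM in WT and from 90.4 through 95.5 to 109 RPKM in R6/1, with every R6/1 library below every WT library. The means were 117 ± 10.2 RPKM for WT against 98.5 ± 6.43 for R6/1 (SD, n = 9 each; log2 fold change -0.25, SE 0.0485, limma adjusted p 2.80e-04). 2 near-identical copies of its coding sequence stand elsewhere in the genome, so its reads may be shared with them.

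**Figure D2:**
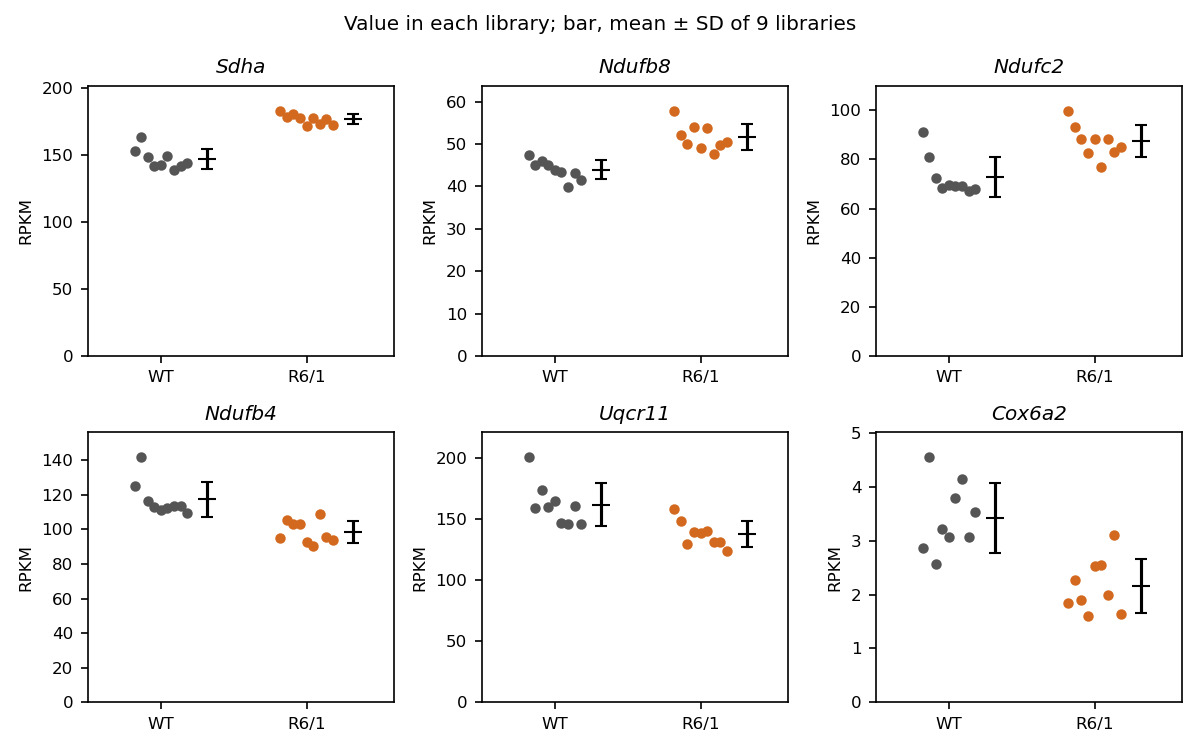
RPKM in each of the 9 WT (grey) and 9 R6/1 (orange) libraries for 6 members, with the mean ± SD as a bar. The genotypes do not overlap for Sdha, Ndufb8 and Ndufb4 and overlap for Ndufc2, Uqcr11 and Cox6a2, whose WT means are 72.9, 162 and 3.42 RPKM.

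Sdha and Ndufb4, which changed in opposite directions without overlap, share a promoter feature. Each has 3 matches to CGCNTGCGC, the core of the site of NRF1, a transcription factor known to bind promoters of respiratory chain genes, in the 250 bases before its start. The 2 genes shown were picked by their changes, and Ndufb8, the other member without overlap, was not among the members with such a match. Matches also stood before members that were not called, such as Atp5c1, Atp5h and Sdhd. Whether the motif goes with a change or its direction was not tested. Sequences are RefSeq's (GRCm38.p6), 5′ to 3′ on the gene's strand, which is the minus strand for both, with the match in capitals, where the motif appears as its reverse complement.
Sdha at chr13:74350315-74350353: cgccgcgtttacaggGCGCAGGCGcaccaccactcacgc
Sdha at chr13:74350272-74350310: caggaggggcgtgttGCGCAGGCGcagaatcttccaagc
Sdha at chr13:74350241-74350265: cccgcgcgactcggtGCGCAAGCGc
Ndufb4 at chr16:37654536-37654574: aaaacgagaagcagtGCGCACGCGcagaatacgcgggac
Ndufb4 at chr16:37654424-37654462: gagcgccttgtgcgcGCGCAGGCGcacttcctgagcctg
Ndufb4 at chr16:37654369-37654405: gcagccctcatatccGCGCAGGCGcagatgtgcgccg

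The matches begin 98, 55 and 10 bases before the start of Sdha and 191, 79 and 22 bases before that of Ndufb4. Among the members, 69 genes had a window in the table, with 75 windows in all, each from 250 bases before to 50 bases after a start. The NRF1 motif, searched on both strands, stood in 21 of these 75 windows (28%), against 6.25% of all 32851 windows and 12.1% of the windows of tested genes. The motif AAGATGGCG of YY1, a zinc finger factor, stood in 9 of the 75 (12%), against 1.4% of all windows and 2.69% of those of tested genes. ACCGGAAGT, an ETS motif of the kind GABP binds, stood in 1 of the 75 (1.33%), against 1.1% and 1.96%. Matching letters describe the window and do not show binding. Nrf1 itself had 2.78 RPKM in WT and 3.06 in R6/1 (log2 fold change 0.12, limma adjusted p 0.108) and was not called.

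In complex I, the catalytic core holds the flavin and the iron-sulfur clusters that take electrons from NADH. 3 of its 7 nuclear-encoded members were higher in R6/1 and 0 were lower by limma, with a median log2 fold change of 0.063. At an unadjusted p under 0.05 limma also gave 0 lower. The calls were 42.9% of the 7, where 48.3% of all tested genes and 60.2% of those at the members' abundance were called. Ndufv2, an iron-sulfur subunit of the NADH-oxidising module, ran from 51.8 through a median of 56.5 to 60.97 RPKM in WT and from 57.2 through 66.8 to 71.4 RPKM in R6/1. The ranges overlapped, although most R6/1 libraries lay above the highest WT library (56.2 ± 3.32 RPKM for WT against 65.7 ± 4.19 for R6/1, SD, n = 9 each; log2 fold change 0.22, SE 0.0423, limma adjusted p 2.06e-04). Ndufv1, which binds the flavin and NADH, had means of 88.4 RPKM in WT and 99.7 in R6/1 (log2 fold change 0.17, limma adjusted p 0.00116). Ndufs1, the largest iron-sulfur subunit of the same module, had means of 44.7 RPKM in WT and 47.98 in R6/1 (log2 fold change 0.10, limma adjusted p 0.0168). All 3 core subunits of that module thus rose. The core members Ndufs3, Ndufs7 and Ndufs8 had changes of 0.063, 0.029 and -0.070, and none of these 3 was called.

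Of the 27 tested accessory members of complex I, 4 were higher and 3 lower (25.9% called, against 48.3% of all tested genes). Ndufc2, a subunit of the membrane arm, ran from 66.96 through a median of 69.2 to 91.2 RPKM in WT and from 77.1 through 88.1 to 99.9 RPKM in R6/1. 2 WT libraries, replicates 1 and 2, reached into the R6/1 range (72.9 ± 8.06 RPKM for WT against 87.3 ± 6.57 for R6/1, SD, n = 9 each; log2 fold change 0.26, SE 0.0575, limma adjusted p 7.92e-04). Ndufa9, near the junction of the arms, was higher by a smaller amount (log2 fold change 0.14, limma adjusted p 0.0124). Ndufb6 had means of 57.7 RPKM in WT and 65.9 in R6/1 and passed by a narrow margin (log2 fold change 0.21, limma adjusted p 0.0498). The call of Ndufb6 held in 15 of 34 alternative analyses, and without WT replicate 2, its lowest library at 37.5 RPKM, the change was 0.13 (limma adjusted p 0.0586). Beside Ndufb4, Ndufb2 (log2 fold change -0.17, limma adjusted p 0.00125) and Ndufb3 (log2 fold change -0.14, limma adjusted p 0.02) were lower. These 3 lower genes all encode small subunits of the membrane arm, as do Ndufb8, Ndufb6 and Ndufc2, which were higher. Ndufb3 has 1 near-identical copy elsewhere.

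Ndufa4, named after complex I and known as a partner of complex IV, was the most abundant of the Nduf genes and was not called (332 RPKM in WT and 345 in R6/1; log2 fold change 0.056, limma adjusted p 0.281; 95% interval -0.031 to 0.14). Its relative Ndufa4l2, known as a hypoxia-responsive gene, was at 2.23 RPKM in WT and 1.904 in R6/1 (log2 fold change -0.20, limma adjusted p 0.165).

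In complex II, Sdha was the only member called, and at an unadjusted p under 0.05 limma gave 1 higher and 0 lower. Sdhb, the iron-sulfur partner of Sdha, had means of 90.3 ± 5.68 RPKM for WT against 87.7 ± 3.65 for R6/1 (SD, n = 9 each; log2 fold change -0.041, limma adjusted p 0.387; 95% interval -0.12 to 0.038). Sdhc and Sdhd anchor the complex in the membrane and bind ubiquinone. Sdhc was at 62.4 RPKM in WT and 61.2 in R6/1 (log2 fold change -0.027, limma adjusted p 0.552; 95% interval -0.10 to 0.047) and Sdhd at 56.6 RPKM in WT and 59.7 in R6/1 (log2 fold change 0.081, limma adjusted p 0.202; 95% interval -0.026 to 0.19). The intervals of these 3 partners ended below the estimate for Sdha of 0.27, and the difference between genes was not tested.

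In complex III, 6 of 8 members were called, 3 higher and 3 lower, where 48.3% of all tested genes and 60.2% of those at the members' abundance were called. Uqcrc1 and Uqcrc2, the large core proteins on the matrix side, were both higher. Uqcrc1 ran from 99.3 through a median of 111 to 128 RPKM in WT and from 114 through 125 to 139 RPKM in R6/1 (log2 fold change 0.16, SE 0.0439, limma adjusted p 0.00619). Uqcrc2 ran from 94.1 through a median of 101 to 108 RPKM in WT and from 105 through 111 to 122 RPKM in R6/1 (log2 fold change 0.15, SE 0.0352, limma adjusted p 0.00134). Both overlapped between genotypes. Uqcrfs1, the Rieske iron-sulfur protein, was not called (log2 fold change 0.036, limma adjusted p 0.497). Among the small subunits, Uqcrh, the hinge protein near cytochrome c1, was higher (log2 fold change 0.13, limma adjusted p 0.0233).

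Uqcr11, Uqcr10 and Uqcrq, small subunits of complex III, were lower. Uqcr11 ran from 146 through a median of 160.1 to 201 RPKM in WT and from 124 through 139 to 158 RPKM in R6/1. The genotypes overlapped, and the highest value of all was WT replicate 1 (162 ± 17.4 RPKM for WT against 138 ± 10.5 for R6/1, SD, n = 9 each; log2 fold change -0.23, SE 0.0575, limma adjusted p 0.00271). Uqcr10 (log2 fold change -0.12, limma adjusted p 0.0222) and Uqcrq (log2 fold change -0.16, limma adjusted p 0.0167) fell by less. Uqcr11 has 2 near-identical copies elsewhere in the genome. Uqcrb, of the same kind, was not called (log2 fold change 0.084, limma adjusted p 0.183).

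In complex IV, 11 of the 15 tested members were not called. The abundant forms Cox6a1 (408 RPKM in WT and 445 in R6/1; log2 fold change 0.12, limma adjusted p 0.0386) and Cox6b1 (277 RPKM in WT and 299 in R6/1; log2 fold change 0.11, limma adjusted p 0.0254) were higher by small amounts. Cox6a1 was called in 22 of 34 alternatives, with an adjusted p of 0.0766 without R6/1 replicate 1. Cox8a, the most abundant member of the complex, had means of 536 ± 36.2 RPKM for WT against 549 ± 45.01 for R6/1 (SD, n = 9 each; log2 fold change 0.034, limma adjusted p 0.602; 95% interval -0.071 to 0.14). Cox5a, Cox5b, Cox6c, Cox7a2, Cox7b and Cox7c had changes between -0.10 and 0.035, none called. Cox7a2l, which helps join complexes III and IV into supercomplexes and is no ordinary subunit, was lower (122 RPKM in WT and 112 in R6/1; log2 fold change -0.12, limma adjusted p 0.00509).

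The largest change of all members was in a minor isoform. Cox6a2, the form of subunit 6A known from heart and skeletal muscle and, in brain, from parvalbumin interneurons, ran from 2.56 through a median of 3.21 to 4.55 RPKM in WT and from 1.61 through 1.99 to 3.11 RPKM in R6/1. R6/1 libraries were mostly below the WT range, with overlap between 2.56 and 3.11 RPKM (3.42 ± 0.6403 RPKM for WT against 2.16 ± 0.495 for R6/1, SD, n = 9 each; log2 fold change -0.56, SE 0.109, limma adjusted p 2.66e-04). These levels rest on 16 to 45 reads per library. Pvalb, the parvalbumin gene, ran from 22.9 through a median of 30.6 to 37.5 RPKM in WT and from 19.96 through 22.7 to 29.7 RPKM in R6/1 (log2 fold change -0.36, limma adjusted p 0.0022). The summed level of the 6 inhibitory neuron markers was 351 to 428 RPKM in WT and 212 to 278 RPKM in R6/1. Sst, the highest of them in WT, fell from a mean of 195 RPKM in WT to 86.7 in R6/1. Of the 6, 5 were lower, Gad1 by less (log2 fold change -0.21), and Slc32a1 was not called (24.4 RPKM in WT and 25.1 in R6/1). The muscle or erythroid markers summed to 7.34 to 9.76 RPKM in WT and 4.98 to 8.52 RPKM in R6/1, with 4 of those 6 markers under a mean of 0.1 RPKM. The part of either list in the change of Cox6a2 was not tested.

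The other minor isoforms were not called. Cox6b2, known from testis, was at 2.68 RPKM in WT and 2.11 in R6/1 (log2 fold change -0.32, limma adjusted p 0.107; 95% interval -0.66 to 0.015). Cox7a1, a muscle and heart form, was at 2.497 RPKM in WT and 2.63 in R6/1 (log2 fold change 0.086, limma adjusted p 0.689). Cox7b2 (0.785 RPKM in WT and 0.648 in R6/1; log2 fold change -0.20, limma adjusted p 0.402) and Cox8b (0.796 RPKM in WT and 0.918 in R6/1; log2 fold change -0.014, limma adjusted p 0.972; 95% interval -0.56 to 0.53) were under 1 RPKM on average. The interval of Cox8b spans both directions widely, and without R6/1 replicate 3, its highest library at 3.14 RPKM, its log2 fold change was -0.21.

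In complex V, the catalytic F1 head and the membrane and stalk parts both held members on either side. Atp5b, the catalytic beta subunit and the most abundant member of all, ran from 514 through a median of 563 to 647 RPKM in WT and from 625 through 666 to 697 RPKM in R6/1. The ranges overlapped, and the means were 569.5 ± 41.5 RPKM for WT against 661 ± 21.9 for R6/1 (SD, n = 9 each; log2 fold change 0.22, SE 0.0412, limma adjusted p 2.12e-04). Atp5a1, the alpha subunit that alternates with beta in the head, ran from 322 through a median of 361 to 396 RPKM in WT and from 383 through 410.3 to 439 RPKM in R6/1 (log2 fold change 0.18, SE 0.0428, limma adjusted p 0.00164). Both large subunits of the head were thus higher, by 16.01% and 13.1% in mean RPKM.

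The F1 subunits of the central stalk were lower or not called. Atp5e, the epsilon subunit, ran from 128 through a median of 141 to 159 RPKM in WT and from 113 through 124 to 137 RPKM in R6/1 and was lower (log2 fold change -0.19, SE 0.043, limma adjusted p 0.00123). Atp5d, the delta subunit, was lower as well (139 RPKM in WT and 124 in R6/1; log2 fold change -0.16, limma adjusted p 0.0109). Atp5c1, the gamma subunit that turns inside the head, was not called (log2 fold change 0.054, limma adjusted p 0.231). Of the 10 members of the membrane part and the peripheral stalk, 1 was higher and 2 were lower (30% called, against 48.3% of all tested genes). The lower ones were Atp5j2 (log2 fold change -0.20, limma adjusted p 0.00312) and Atp5k (log2 fold change -0.15, limma adjusted p 0.0146), both small membrane subunits, and Atp5k has 2 near-identical copies elsewhere.

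The c ring of the ATP synthase, through which protons pass, is built from 1 mature protein that 3 genes encode with different import signals. Atp5g1 was higher (116 RPKM in WT and 130.1 in R6/1; log2 fold change 0.17, limma adjusted p 0.0168). Atp5g2 (122 RPKM in WT and 120.2 in R6/1; log2 fold change -0.030, limma adjusted p 0.589; 95% interval -0.12 to 0.059) and Atp5g3, the most abundant of the 3 (245 RPKM in WT and 261 in R6/1; log2 fold change 0.092, limma adjusted p 0.075; 95% interval 0.0049 to 0.18 before adjustment), were not called. The intervals of Atp5g1 (0.053 to 0.29) and of its 2 relatives overlap, and the difference between them was not tested. Atp5s, which the symbol rule includes although it is not a structural subunit, ran from 7.598 through a median of 8.76 to 9.78 RPKM in WT and from 6.43 through 7.34 to 8.03 RPKM in R6/1 and was lower (log2 fold change -0.25, SE 0.0485, limma adjusted p 2.21e-04). Its relative Atp5sl was not called (log2 fold change -0.10, limma adjusted p 0.106).

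The members' levels varied among the libraries of a genotype. The median coefficient of variation of a member was 6.95% among WT and 6.57% among R6/1 libraries. The median deviation of the 80 members from their overall mean ran from -0.079 to 0.10 (log2) among WT and from -0.073 to 0.12 among R6/1 libraries. Replicate 1 was the highest and replicate 7 the lowest in both genotypes, and the medians of all 5 complexes were above the overall mean in replicate 1 of each. Without WT replicate 1, 23 members were higher and 13 lower, where 49.7% of all tested genes were called. Without R6/1 replicate 1, 14 members were higher and 16 lower, where 47.1% of all tested genes were called. The members summed to 9573 ± 497 RPKM in WT (8992 to 10458) and 9821 ± 423 RPKM in R6/1 (9311 to 10593, SD, n = 9 each), with overlap. As a share of each library's own reads, the members took 0.826% to 0.922% in WT and 0.934% to 1.03% in R6/1, without overlap. The 2 measures differ in the weight of long genes and in the scaling, under which the median of all genes also moved.

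**Figure D3:**
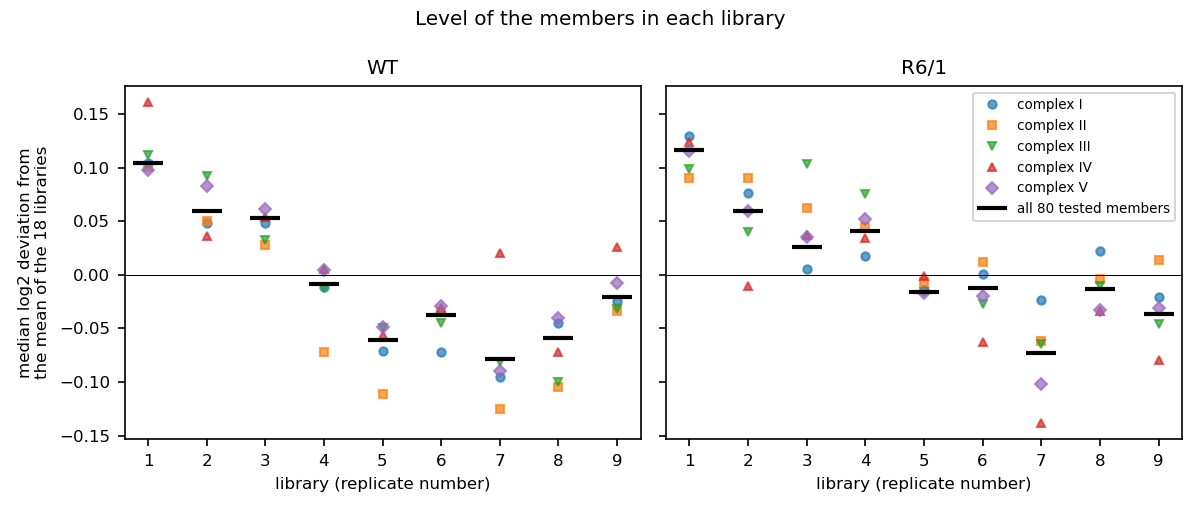
Median log2 deviation from the mean of the 18 libraries, for the members of each complex (symbols) and all 80 tested members (bars), by library. Both genotypes span a similar range (-0.079 to 0.10 in WT and -0.073 to 0.12 in R6/1), with replicate 1 highest and replicate 7 lowest in each.

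Higher and lower calls were split unevenly by transcript length, which is given as a description. Relative transcript length was taken from the ratio of the deposited normalized counts to RPKM. Of the 40 members at or above the median length 11 were higher and 5 lower, and of the 40 shorter members 5 were higher and 8 lower. Across the 80 members, Pearson's r between log2 length and log2 fold change was 0.30 and Spearman's rho 0.29, as a description over genes that share the same 18 libraries. Over all tested genes r was 0.016. The 728 tested genes shorter than the median member were called in 25.1% of cases, 69 higher and 114 lower, with a median log2 fold change of -0.049. The 13718 at or above that length were called in 49.5% of cases, 3517 higher and 3280 lower. With a length trend removed per library, 29 members were higher and 10 lower. Of all tested genes 51.1% were then called, 4345 higher and 3034 lower, with a median log2 fold change of 0.033. With a GC trend removed, 27 members were higher and 10 lower. Of the 13385 genes in that fit 52.9% were called, 4159 higher and 2925 lower, with a median of 0.033. The part of length in the split of large and small subunits was not tested beyond these fits.

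**Figure D4:**
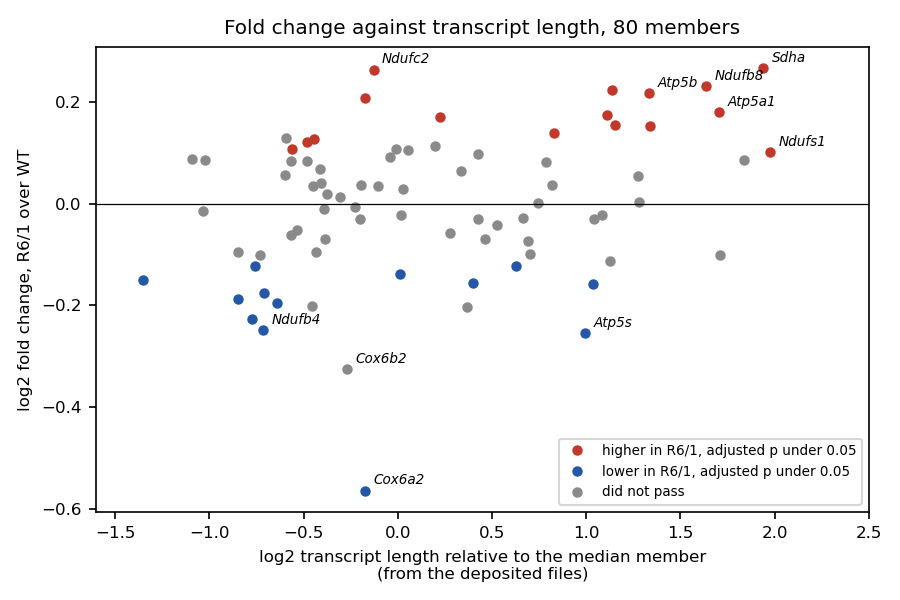
Log2 fold change of R6/1 over WT against log2 transcript length relative to the median member, 1 point per member (n = 80). Called members among the longest (Sdha, Ndufs1, Atp5a1, Ndufb8, Atp5b) lie above 0 and most called members among the shortest lie below it (r = 0.30).

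Near-identical copies are common among these genes. 20 of the 82 members had at least 1 stretch elsewhere in the genome with at least 95% identity over at least 80% of the coding sequence. Of these 20, 1 was higher (Atp5g1), 4 were lower (Atp5k, Ndufb3, Ndufb4 and Uqcr11), 14 were not called and Ndufs5 was not tested. Of the 62 without a copy, 15 were higher, 9 were lower, 37 were not called and 1 was not tested. Of all tested members 36.2% were called, and of all tested genes 48.3%. The difference between members with and without a copy was not tested. How the authors' counting treated reads that match several places is not given in the sources used here, so the values of the 20 are uncertain.

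Lamin B1 binds chromatin at the nuclear periphery, in domains that are mostly poor in active genes. The study's domains, 1 list per genotype from pooled mice, held the start of 7 of 80 members (8.75%), against 13.3% of the 13983 tested genes with a position. Atp5j, Cox7b2, Cox7c, Ndufa4 and Ndufa5 started in a domain in both genotypes, Cox7b and Ndufb11 in WT alone, and 0 members in R6/1 alone. None of these 7 was called by limma, where 48.3% of all tested genes and 36.2% of the tested members were. The share called among all tested genes that start in a domain is not given here. 2 of the 7 had an unadjusted p under 0.05 by limma. They were Cox7c (log2 fold change -0.10, limma adjusted p 0.0691) and Ndufb11 (log2 fold change 0.11, limma adjusted p 0.079). Cox7b had a log2 fold change -0.030, limma adjusted p 0.515. With 1 list per genotype, the difference between lists has no replicate check.

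Genes around the chain were read from lists of related function. In the table were 8 further genes of the chain and the ATP synthase outside the symbol rule, not all of them structural subunits. By limma 0 of the 8 were higher and 2 lower (25% called, against 48.3% of all tested genes), with 1 higher at an unadjusted p under 0.05. Cox4i1, the main form of subunit 4 of cytochrome oxidase, was at 478 RPKM in WT and 508 in R6/1 and not called (log2 fold change 0.088, limma adjusted p 0.102). Cox4i2, its lung and hypoxia form, was lower at a low level (1.41 RPKM in WT and 0.999 in R6/1; log2 fold change -0.35, limma adjusted p 0.04). The other lower one was 2010107E04Rik, a small protein of the ATP synthase (log2 fold change -0.12, limma adjusted p 0.0313). Of 41 assembly factors, 6 were higher and 9 lower (36.6% called). Ndufaf6, which acts in complex I assembly, was the most increased (4.46 RPKM in WT and 5.87 in R6/1; log2 fold change 0.37, limma adjusted p 1.97e-04). Lyrm7, a chaperone that delivers the Rieske protein to complex III, fell furthest and ran from 2.44 through a median of 4.67 to 5.71 RPKM in WT and from 1.39 through 1.86 to 2.77 RPKM in R6/1 (log2 fold change -0.94, SE 0.132, limma adjusted p 8.27e-06), which is a larger change than that of any member.

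Of 16 regulators of mitochondrial biogenesis, 2 were higher and 1 lower (18.8% called, against 48.3% of all tested genes). The higher ones were Twnk, the helicase of mitochondrial DNA (log2 fold change 0.32, limma adjusted p 2.22e-05), and Polrmt, the mitochondrial RNA polymerase (log2 fold change 0.19, limma adjusted p 0.00523), and the lower one was Polg, the mitochondrial DNA polymerase (log2 fold change -0.17, limma adjusted p 0.00711). Ppargc1a, the coactivator PGC-1alpha, had means of 9.95 ± 0.482 RPKM for WT against 9.75 ± 1.19 for R6/1 (SD, n = 9 each; log2 fold change -0.036, limma adjusted p 0.654). Tfam, which packages mitochondrial DNA, had means of 8.71 RPKM in WT and 9.36 in R6/1 (log2 fold change 0.097, limma adjusted p 0.0879). Neither was called. Of 24 genes of the TCA cycle and pyruvate dehydrogenase, 8 were higher and 5 lower (54.2% called). Idh3a, a catalytic subunit of the NAD-dependent isocitrate dehydrogenase, was higher (85.2 RPKM in WT and 107 in R6/1; log2 fold change 0.33, limma adjusted p 1.15e-04).

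**Figure D5:**
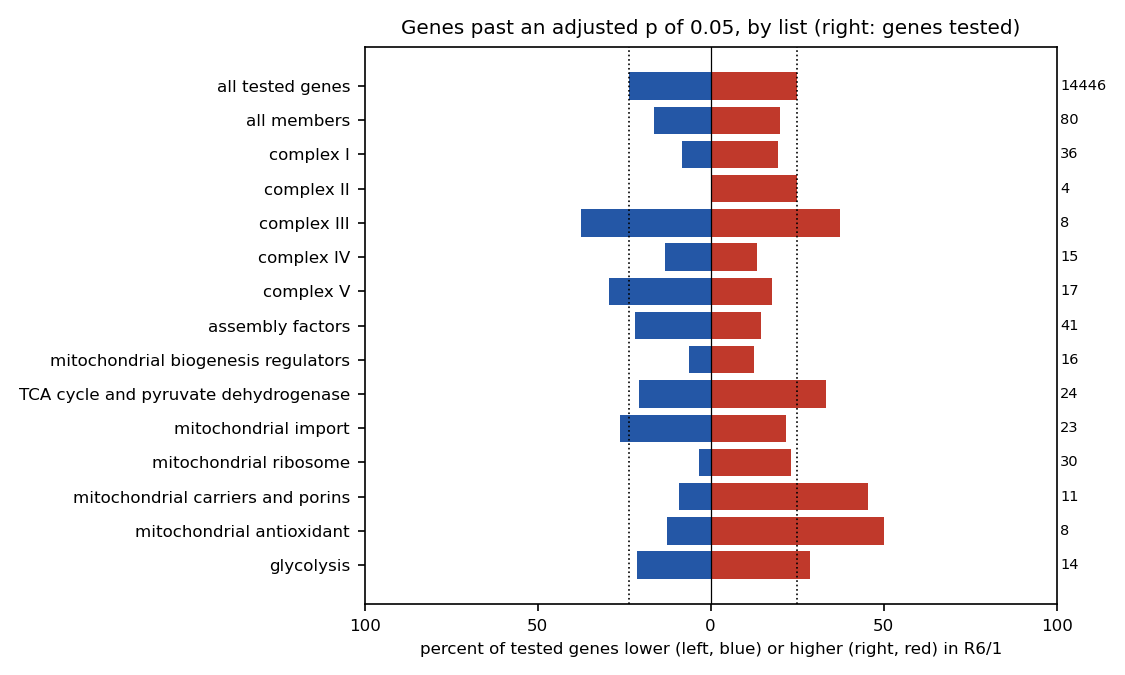
Percent of the tested genes of each list that were higher (red, right) or lower (blue, left) in R6/1 at an adjusted p under 0.05, with the number tested at the right edge. Dotted lines mark all tested genes, 24.8% higher and 23.5% lower. The members as a whole lie inside both lines.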

How the data were processed

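Hippocampal RNA was sequenced as stranded messenger RNA libraries, per the labels' protocols, from 9 WT and 9 R6/1 samples, which were grouped by the genotype in the labels. The authors deposited RPKM values (reads per kilobase, scaled for depth) per gene symbol. TopHat and DESeq2 are named for these samples, without versions, per the submitters' processing notes, and the counter and annotation are not given in the sources used here. The authors' deposited comparison gives a mean normalized count over all libraries (a signal, counts divided by size factors), log2 fold changes and their standard errors, a test score, and a p-value with its adjusted p-value. The score was not used. RPKM times the ratio of mean normalized count to mean RPKM gave whole reads, within 0.05 of a read, for 99.87% to 99.91% of values, so depth per library was known and the scaling is by size factors.

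Each gene was tested with limma 3.58.1 (R 4.3.3; lmFit, eBayes with a mean-variance trend, two-sided) on log2(RPKM + 0.5), for genes averaging at least 0.5 RPKM over 18 libraries, with Benjamini-Hochberg adjustment over all 14446 and a threshold of 0.05. Intervals are 95% confidence intervals of that fit, not adjusted for the number of genes. Genes named are the up to 3 most increased and most decreased called members per complex, the most abundant member, those without overlap between genotypes, isoform sets, the Sdh genes, and the extremes of each other list apart from 1, with Cox4i1, Ppargc1a, Nrf1 and Tfam. The remaining called members, Polrmt, 2010107E04Rik, Pvalb and members given beside called ones of the same role were named after their values were seen. Members and lists were chosen with earlier results of these data known, and the related lists are written from general knowledge. The code was tested on simulated data. No per-sample column was left out (0 columns). The single values of 1 member and of 1 gene of another list are not reported here.

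Lamin B1 domains were deposited as 1 list per genotype, from chromatin of pooled mice, with a score per domain from the authors that was not used. Bowtie and build mm9 are named for them, per the submitters' processing notes, and the genome used for positions, gene models and near copies was NCBIM37, the assembly that mm9 shows. 22266 of 24508 symbols (90.9%) and 82 of 82 members matched its GENCODE annotation. Promoter windows are from RefSeq on GRCm38.p6 and were used for sequence alone. ATAC-seq and ChIP reads were not analysed here. Alternatives were pseudocounts of 0.1 and 1, filters, scalings, library weights, voom on recovered reads, removal of length or GC trends, marker covariates, a replicate block, the authors' table, and leaving out each library.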

Additional observations from a re-analysis of the deposited data

Results flagged for a closer look

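Among 132 groups of 9 libraries of the genes named, 5 held a library farther from the rest than Dixon's 95% value for 9 samples allows, where chance gives about 6.6 (1 in 20). Ndufb4 was at 141.7 RPKM in WT replicate 2, above the next highest at 125 RPKM, and without that library its log2 fold change was -0.21 (limma adjusted p 1.98e-04). Cox6b1 was at 310.4 RPKM in WT replicate 1, above the next at 279.7 RPKM, and its change without it was 0.13 (limma adjusted p 0.0049). Cox7a2l was at 99.4 RPKM in R6/1 replicate 7, below the next lowest at 109 RPKM, and its change without it was -0.10 (limma adjusted p 0.00868). Cox8b was at 3.14 RPKM in R6/1 replicate 3, above the next at 1.17 RPKM, and its change without it was -0.21 (limma adjusted p 0.427). That library also had the highest summed level of choroid plexus markers, 1743 RPKM, and the part of these cells in the value was not tested. Ckmt1, the mitochondrial creatine kinase of the carrier list, was at 132.5 RPKM in WT replicate 6, above the next at 119.6 RPKM, and its change without it was -0.16 (limma adjusted p 0.00132).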

How the results depend on the processing

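Under quantile normalization 34 members were higher, under scaling to each library's own total 36, with the length trend removed 29 and with the GC trend removed 27, against 16. In that order these settings called 50.5%, 52.9%, 51.1% and 52.9% of all genes in the fit, against 48.3%. The share of higher genes among all calls was 58.3%, 66.9%, 58.9% and 58.7%, above that of the main fit in each. Lower members were 7 under own totals, against 13. The members' median log2 fold change was 0.074 under quantile normalization and 0.081 under own totals, where that of all tested genes was 0.032 and 0.069. By complex it was 0.11 for complex I, 0.0996 for II, 0.13 for III and 0.043 for V under own totals, and 0.057 for V under quantile normalization. With the mean of the neuron markers as a covariate, whose levels do not overlap between genotypes, 541 of all genes were higher and 471 lower, and of the members 1 (Sdha) was higher and 0 lower. The members' median was then 0.10, with 0.23 for complex II, 0.11 for IV and 0.11 for V. Atp5d (0.041), Pfkl (0.010) and 2010107E04Rik (0.060) changed direction in that fit, none called. Sdha was called in all 34 alternatives, and 20 of the 29 called members, 13 higher and 7 lower, in all but that covariate. Among 66 named genes, 44 calls were lost there. In the other alternatives 78 of 2175 single-gene values lost a call and 33 gained one, with 0 changes of direction. Leaving out 1 library gave 13 to 23 higher and 13 to 16 lower members, and medians of 0.029 to 0.056 for complex I, 0.014 to 0.054 for II, 0.044 to 0.077 for III, -0.068 to -0.020 for IV and -0.048 to -0.013 for V. The choroid plexus covariate gave 15 higher and 15 lower members, where 49.4% of all tested genes were called. The replicate block gave 21 higher and 15 lower members, where 49.4% of all tested genes were called. Same-numbered libraries did not deviate together throughout (3 of 9 correlations over 0.1, from -0.053 to 0.24; for 1 of 9 numbers, replicate 1, each library was the other's best match). The labels do not say whether equal numbers share a batch, and this was not settled here. The cause of these shifts was not tested. Depth limits the 6 members under 4 RPKM.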

Other observations

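In further mitochondrial and glycolytic lists, genes changed in both directions. The share called was 54.5% of the carriers and porins, 47.8% of the import genes and 26.7% of the mitochondrial ribosome genes. It was 62.5% of the antioxidant genes and 50% of the glycolysis genes, against 48.3% of all tested genes. Of 11 carriers and porins, 5 were higher and 1 lower. Slc25a12, the aspartate/glutamate carrier of neurons, was higher in every R6/1 library than in any WT library (55.00 RPKM in WT and 72.3 in R6/1, log2 fold change 0.39, limma adjusted p 2.66e-07), and Ckmt1 was lower (116 RPKM in WT and 101 in R6/1, log2 fold change -0.19, limma adjusted p 8.78e-04). Of 23 import genes, 5 were higher and 6 lower. Timm22, the channel for carrier proteins, was higher without overlap (6.67 RPKM in WT and 9.73 in R6/1, log2 fold change 0.51, limma adjusted p 1.12e-06), and Tomm5, a small subunit of the outer membrane pore, was lower (27.9 RPKM in WT and 23.1 in R6/1, log2 fold change -0.26, limma adjusted p 2.78e-04). Of 30 mitochondrial ribosome genes, 7 were higher and 1 lower. They included Mrpl16, higher without overlap (16.1 RPKM in WT and 20.3 in R6/1, log2 fold change 0.33, limma adjusted p 8.01e-06), and Mrps15, the lower one (21.1 RPKM in WT and 18.4 in R6/1, log2 fold change -0.18, limma adjusted p 0.0182).

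Of 8 antioxidant genes, 4 were higher, with Gsr, glutathione reductase, changed most (12.8 RPKM in WT and 15.8 in R6/1, log2 fold change 0.29, limma adjusted p 0.00256), and 1 was lower, Txn2, mitochondrial thioredoxin (69.7 RPKM in WT and 63.1 in R6/1, log2 fold change -0.14, limma adjusted p 0.0156). Of 14 glycolysis genes, 4 were higher and 3 lower. Gpi1, glucose-6-phosphate isomerase, was higher without overlap (222 RPKM in WT and 289.8 in R6/1, log2 fold change 0.38, limma adjusted p 5.71e-07). Pfkl, the liver form of phosphofructokinase, was lower (64.5 RPKM in WT and 52.6 in R6/1, log2 fold change -0.29, limma adjusted p 3.80e-04).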
